A study of Mus musculus with 9 samples.

Results

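These are the genes that are higher in the right atrium than in the ventricle of control hearts and that have lost at least 60% of that difference in the right atrium of mutants lacking COUP-TFII (Nr2f2) in cardiomyocytes. Of 18193 measured genes, 706 had a control ventricle mean at least 1 log2 unit below the control atrium mean, a control atrium mean of at least 7 on the log2 intensity scale, and control atrium arrays within 0.7 of each other. By the start of their symbols 15 of these were left out, among them Nr2f2 itself and mesothelial genes such as Upk3b, Msln and Bnc1, which leaves 691 atrial genes. Of these, 107 genes (15.5%) had a mutant minus control atrium difference of at least 0.6 of the ventricle minus control atrium difference, and are called the members. The percentage of the chamber difference is the first difference divided by the second. At 100% the mutant atrium stands at the ventricular mean. The members were chosen by the measured differences of the mutant atrium and of the ventricle from the same control atria, so all values of the members below are a description and no test is attached to them. Of the 15 genes left out by name, 6 were past the limit for members (Gadl1, Hamp, Hamp2, Krt7, Krt8 and Krt18). A further 39 genes, among them liver transcripts such as Alb, were past it but were left out because they varied by over 0.7 between the control atria.

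RNA was measured on 9 Affymetrix arrays of mouse heart, 3 in each of 3 groups, from animals of 2 months on a C57BL/6 background. The mutant right atria carry Myh6-cre; COUP-TFIIflox/flox, where the Myh6 promoter drives Cre in cardiomyocytes and so removes the floxed gene there. Control right atria and control ventricles are COUP-TFIIflox/flox, so every group carries the floxed alleles and only the mutants carry Cre. Expression of Cre and loss of COUP-TFII therefore cannot be told apart. The labels call the replicates biological but do not say whether animals were pooled, so p-values measure only the spread between these samples. Levels are on the log2 intensity scale (mean ± SD, n = 3), and a difference between groups carries its SE from limma fitted to the 9 arrays together.

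COUP-TFII is an orphan nuclear receptor that binds repeats of a short core sequence in DNA and is found in atrial but not ventricular myocytes. In development it takes part in giving atrial muscle its identity, and the adult atrium differs from the ventricle in contractile proteins, ion channels, secreted peptides and the cell types around the muscle. The right atrium also holds the sinus node, much surface mesothelium and venous tissue, so an atrial transcript is not always a transcript of muscle. These are bulk tissues, in which fewer cells of a type and less RNA per cell cannot be told apart.

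Some transcripts outside the members differed between the arrays. Cardiomyocyte markers were high in all groups, with the list mean over 12 genes between 13.86 and 14.14 on every array. Nr2f2 itself was 7.53, 7.66 and 7.29 in control atria, 6.82, 6.62 and 6.82 in mutant atria and 5.96, 5.34 and 5.74 in ventricles, which is 40.9% of its chamber difference. The control atria held hepatocyte transcripts in unequal amounts, with a mean over 18 markers of 9.54, 8.66 and 7.01 against 5.22 to 5.24 in the mutants and 5.01 to 5.14 in the ventricles. Xist was 12.73, 8.55 and 10.91 in control atria, 12.48, 6.73 and 6.48 in mutant atria and 11.80 to 11.87 in ventricles, and the labels do not give the animals' sex. The part of sex in the values below was not tested.

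As a group the members covered a wide range. The mutant minus control difference ran from -3.38 to -0.64 with a median of -1.17, beside a median of 0.03 over all genes. The ventricle minus control difference ran from -4.19 to -1.001 with a median of -1.41. The median percentage of the chamber difference was 76.0%, with quartiles at 67.7% and 91.6%. The mutant was lower by at least 1 log2 unit for 72 members, as it was for 1.53% of all genes, and by at least 2 units for 16. In 104 of 107 members every mutant array lay below every control atrium array, which over all genes was the case for 18.9%. The exceptions were Ang, Pttg1 and Gm30873. The rule used this contrast, so the count only describes the members.

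**Figure D1:**
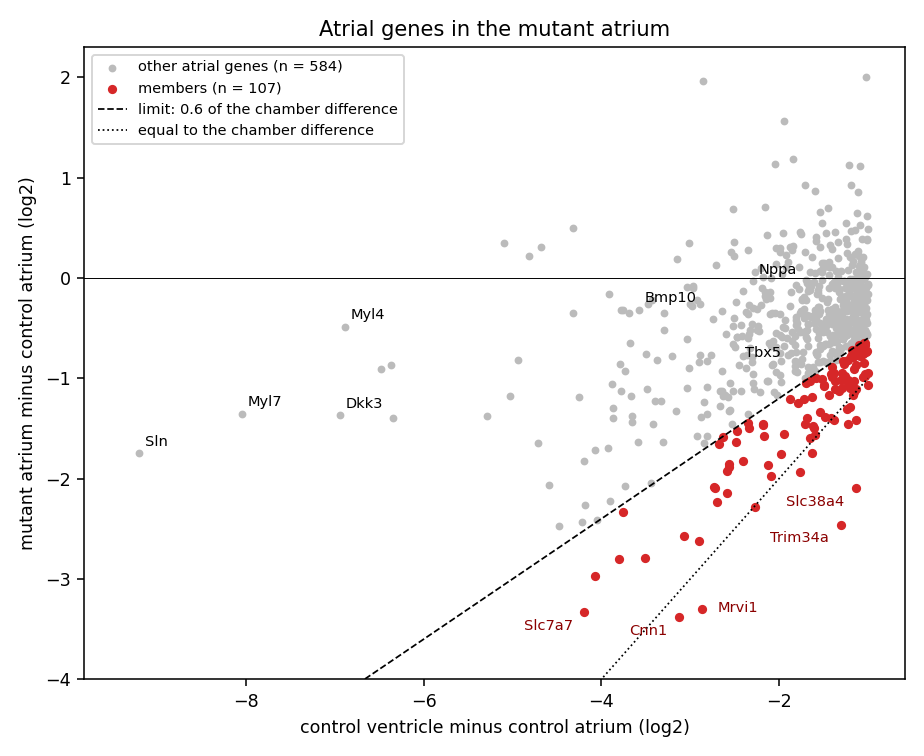
Each point is 1 of the 691 atrial genes, with the control ventricle minus control atrium difference (log2) on the x axis and the mutant minus control atrium difference (log2) on the y axis. The 107 members (red) lie at or below the dashed line at 0.6 of the chamber difference. Of these 13 lie below the dotted line of equality, among them the labelled Cnn1, Mrvi1, Slc38a4 and Trim34a. The atrial muscle genes Sln, Myl7, Dkk3 and Myl4 lie far above the dashed line.

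Against the other 584 atrial genes, the members were not the brightest nor the most chamber-restricted. The median control atrium level was 8.74 for the members and 9.62 for the others, and the median chamber difference was -1.41 and -1.53. The other genes had a median of 23.9% of the chamber difference (quartiles 6.28% and 40.2%). Of all 691 atrial genes 583 were lower and 108 higher in the mutant than in the control mean, with a median of 29.6%. The members are thus the end of a continuous range. Just inside the limit lay Zfp994 (60.1%), Rab3b (60.3%) and Homer1 (61.0%), and just outside lay Nos3 (59.8%), Basp1 (59.6%) and Fras1 (59.5%).

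None of the classical genes of atrial muscle was a member. Sln, which encodes the atrial regulator of the calcium pump, had 19.0% of its chamber difference, the atrial light chains Myl7 and Myl4 16.8% and 7.09%, the secreted protein Dkk3 19.7% and the natriuretic peptide Nppa 1.47%. The ligand Bmp10 stood at 8.80% and the potassium channel subunits Kcnj3 and Kcnj5 at 16.7% and 46.7%, while the transcription factor Tbx5 stood at 35.2%. The mutant minus control differences were -1.75 for Sln, -1.37 for Dkk3 and -1.35 for Myl7, beside a median of -1.17 over the members. Their chamber differences were large, at -9.20, -6.94 and -8.05. The mutant differences were -0.86 for Tbx5, -0.83 for Kcnj5, -0.49 for Myl4, -0.35 for Kcnj3, -0.31 for Bmp10 and -0.03 for Nppa. Of a fixed list of 20 atrial muscle genes, 15 were among the 691 atrial genes, and they ran from -6.81% to 46.7% with a median of 19.0%. Sln, Myl7, Myl4 and Nppa lie near the array maximum of 15.02 to 15.11 in the control atria. In this list limma passed 12 genes as lower in the mutant and 1 as higher (median -0.85), beside 9.79% lower and 7.76% higher over all genes. In the ventricle 19 were lower and 1 higher, beside 23.6% and 29.2%.

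**Figure D2:**
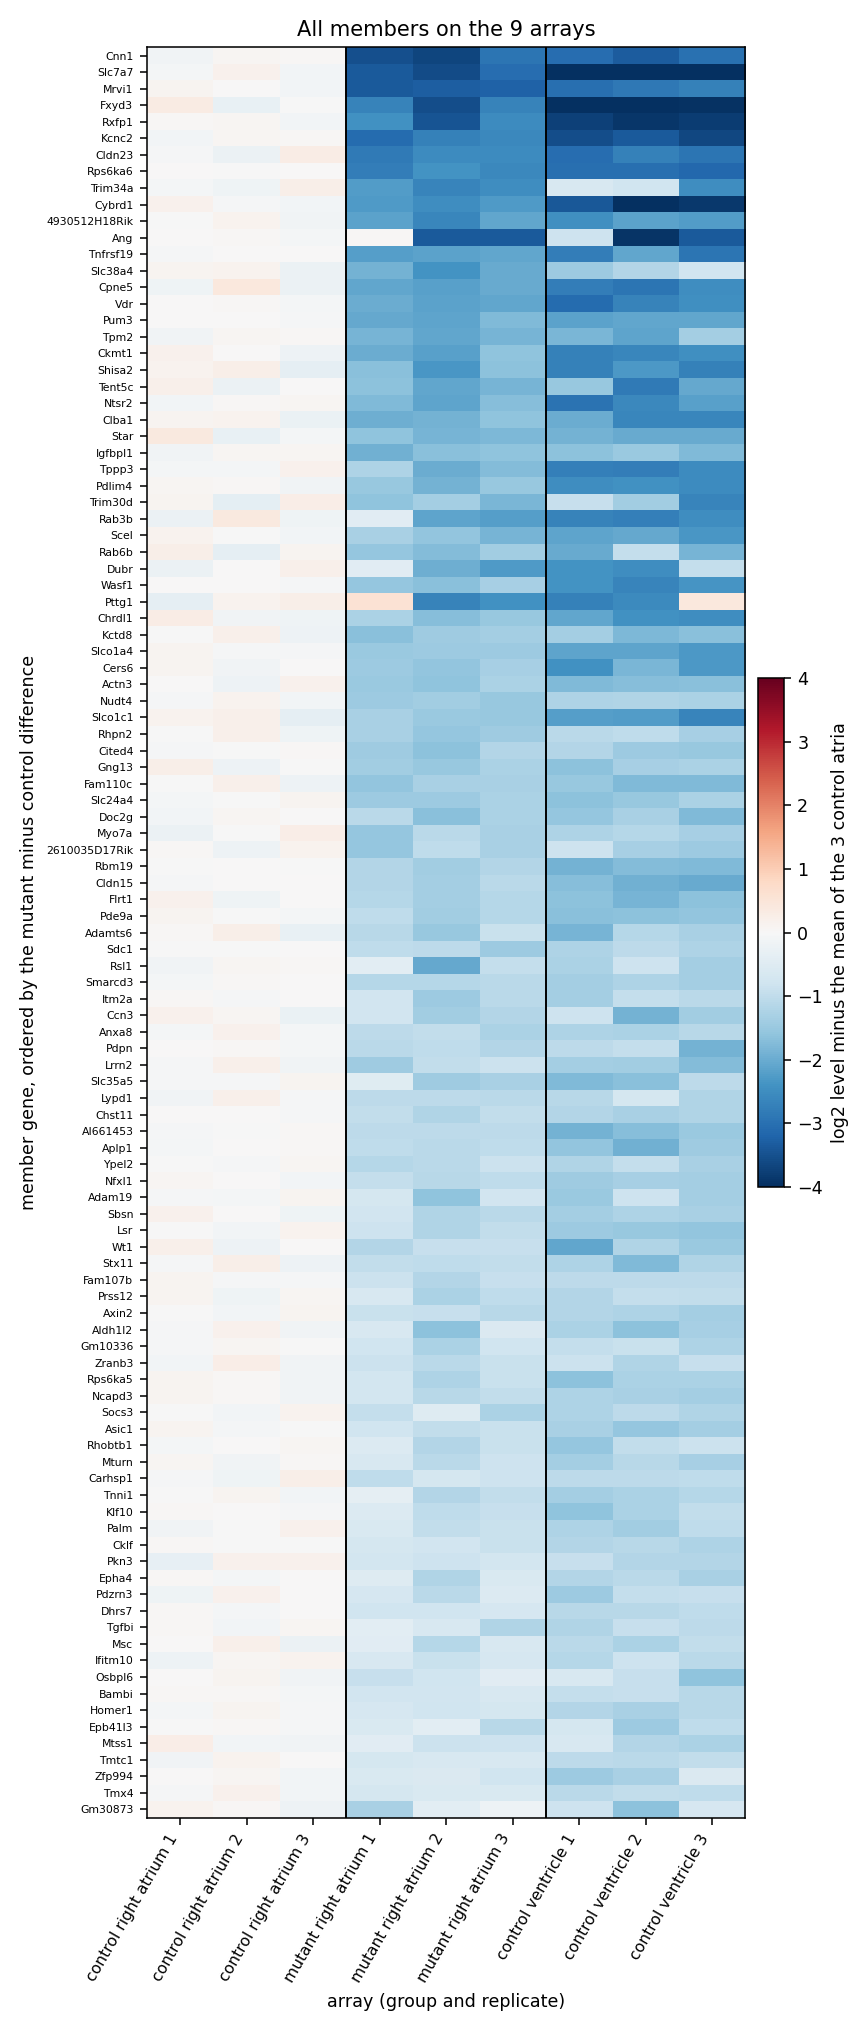
All 107 members (rows, ordered by the mutant minus control difference) on the 9 arrays (columns), coloured by the log2 level minus the mean of the 3 control atria, with blue below and red above. The mutant columns are blue as the ventricle columns are, except for single cells such as Ang and Pttg1 in mutant replicate 1, and the top rows differ by over 3 log2 units.

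The largest difference was in the muscle and cytoskeleton genes, 13 of the members. Cnn1 encodes calponin, an actin-binding protein best known from smooth muscle. Its level was 9.18, 9.40 and 9.36 in control atria, 5.79, 5.63 and 6.38 in mutant atria and 6.27, 5.99 and 6.32 in ventricles. All mutant arrays lay far below the controls and overlapped with the ventricles. The mutant mean was 5.93 ± 0.40 against 9.31 ± 0.12, a difference of -3.38 ± 0.18 (10.4-fold lower), or 108% of the chamber difference.

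Other genes of contractile smooth muscle differed in both directions. The smooth muscle myosin Myh11 was 7.82 ± 0.12 in mutant and 7.12 ± 0.11 in control atria (0.70 ± 0.11, limma adjusted p = 0.00297), and the actin-binding Tagln was 9.18 ± 0.14 and 8.66 ± 0.24 (0.52 ± 0.14, limma adjusted p = 0.0332). Smooth muscle actin Acta2 gave 0.82 ± 0.32 and did not pass (limma adjusted p = 0.111). Of the 13 other measured genes of the smooth muscle list 5 passed as higher and 1 as lower by limma (median 0.28), the latter being the light chain Myl9 (-1.46 ± 0.30). Over all genes 7.76% passed as higher and 9.79% as lower. In the ventricle 9 of these 13 genes passed as higher and 2 as lower (median 0.44), beside 29.2% and 23.6% of all genes. The ventricle minus control atrium difference was 1.35 for Myh11, 0.92 for Tagln, 0.83 for Acta2 and -3.42 for Myl9. Each had the sign of the mutant difference. The mean over the list with Cnn1 was 9.68 to 9.74 in control atria, 9.53 to 9.74 in mutants and 9.54 to 9.79 in ventricles. Myh11, Tagln, Acta2 and Myl9 were picked to be named after their values were seen.

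Mrvi1 encodes a substrate of cyclic GMP-dependent protein kinase that sits with the inositol trisphosphate receptor of the calcium store. It was 10.95, 10.85 and 10.72 in control atria, 7.48, 7.56 and 7.60 in mutants and 7.83, 7.98 and 8.13 in ventricles. The mutant arrays lay below all ventricle arrays as well, without overlap. The difference of -3.29 ± 0.09 (9.81-fold) was 115% of the chamber difference, and the other probe set of the gene gave -3.20 and 122%.

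Tpm2 encodes beta-tropomyosin, a thin filament protein. Its levels were 11.70, 11.91 and 11.87 in control atria, 9.96, 9.76 and 9.97 in mutants and 9.99, 9.72 and 10.47 in ventricles, so the mutants overlapped with the ventricles. It differed by -1.93 ± 0.16 (3.81-fold), and the other 3 probe sets gave -2.26, -1.66 and -1.06. Tnni1, the slow skeletal troponin I, differed by -0.84 ± 0.18 and was uneven, with 7.04, 6.22 and 6.40 in the mutants against 7.38, 7.49 and 7.29 in the controls. In the fixed list of sarcomere genes these were the members, and of the other 29 genes 2 passed as lower and 8 as higher in the mutant by limma (median 0.10), beside 9.79% and 7.76% of all genes.

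The other muscle and cytoskeleton members are listed to account for all of them, not for their size. Tppp3, which promotes tubulin assembly, differed by -1.65 ± 0.17, Pdlim4, a PDZ and LIM protein of actin bundles, by -1.64 ± 0.10 and Wasf1, an activator of actin branching, by -1.52 ± 0.10. The alpha-actinin of fast skeletal fibres, Actn3, gave -1.46 ± 0.11, and the unconventional myosin Myo7a -1.31 ± 0.14. Scel (-1.58), Palm (-0.82), Epb41l3 (-0.72) and Mtss1 (-0.71) complete the group, whose median was -1.52 and whose percentages ran from 61.5% to 115%.

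Channels and transporters gave 11 members with a median of -1.48. Slc7a7 encodes y+LAT1, a light subunit of an exchanger of cationic and neutral amino acids. It was 10.10, 10.34 and 10.04 in control atria, 6.80, 6.59 and 7.11 in mutants and 6.13, 5.74 and 6.03 in ventricles. The groups did not overlap and the mutants stood between both control tissues, with a difference of -3.33 ± 0.15 (10.1-fold) and 79.5% of the chamber difference. Its other probe set gave -2.05 and 93.8%.

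Kcnc2 encodes Kv3.2, a fast voltage-gated potassium channel of neurons. It was 8.25, 8.45 and 8.40 in control atria, 5.30, 5.65 and 5.78 in mutants and 4.82, 5.01 and 4.74 in ventricles. No group overlapped with another, though 2 of the 3 ventricle arrays lay in the lowest 25% of all probe sets, and the mutant difference was -2.79 ± 0.13 (6.91-fold) or 79.5% of the chamber difference. Slc38a4, a sodium-coupled carrier of neutral amino acids, went beyond the ventricle. It was 8.81, 8.84 and 8.46 in control atria, 6.81, 6.30 and 6.70 in mutants and 7.24, 7.54 and 7.91 in ventricles, a mutant difference of -2.10 ± 0.19 and 184% of the chamber difference (128% with its other probe set).

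Fxyd3, which modulates the sodium-potassium pump, was among the members with the largest chamber difference. Its level was 9.80 ± 0.31 in control atria, 6.83 ± 0.50 in mutants and 5.73 ± 0.11 in ventricles (-2.97 ± 0.23). Cybrd1, a ferric reductase of iron uptake, was 8.83 ± 0.15, 6.49 ± 0.14 and 5.08 ± 0.32 (-2.34 ± 0.15, 62.3%). The mean of all its probe sets gave -1.45. Asic1, a proton-gated sodium channel, differed by -0.89 ± 0.09. The organic anion transporters Slco1a4 (-1.47 ± 0.07, 67.3%) and Slco1c1 (-1.44 ± 0.16, 61.3%) lie near each other in the RefSeq gene order of GRCm38.p6, with 2 coding genes between them. Kctd8 (-1.48), an auxiliary subunit of GABA receptors, Slc24a4 (-1.39), a potassium-dependent sodium-calcium exchanger, and Slc35a5 (-1.07) complete the group. Asic1 was the only member on the fixed list of sodium, chloride and pacemaker channels. Of the other 16 genes of that list 4 passed as lower and 3 as higher in the mutant by limma, beside 9.79% and 7.76% of all genes.

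Promoters of the strongly different members are shown for the core site that COUP-TFs and other nuclear receptors bind. RefSeq gave 121 promoters of 300 bases (250 before and 50 after the start, GRCm38.p6) for 89 of the 107 members, and 18 of the 20 largest differences had one. The core AGGTCA, on either strand, was in 15 of these 121 promoters (12.4%), beside 16.3% of all 32851 promoters of that length. Its direct repeat with 1 base between, AGGTCANAGGTCA, was in none of them and in 0.0396% of all. GATA sites, AGATAA, were in 10.7% against 11.2%, T-box sites, AGGTGT, in 16.5% against 13.7%, and MEF2 sites in 2.48% against 3.69%, all on both strands. Of the 20 largest differences 4 held the core, and their promoters are printed 5′ to 3′ with the core in capitals, as AGGTCA or, on the other strand, TGACCT. They lie at chr14:54410154-54410453 (minus strand), chr7:110946138-110946437 (minus strand), chrX:111537910-111538209 (minus strand) and chr2:121357526-121357825 (plus strand).
Slc7a7: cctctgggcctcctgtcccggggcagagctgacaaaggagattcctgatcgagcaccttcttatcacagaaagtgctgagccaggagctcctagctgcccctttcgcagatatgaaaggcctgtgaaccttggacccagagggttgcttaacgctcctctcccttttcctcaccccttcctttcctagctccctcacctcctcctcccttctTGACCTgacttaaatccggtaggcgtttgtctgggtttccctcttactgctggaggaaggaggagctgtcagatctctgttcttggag
Mrvi1: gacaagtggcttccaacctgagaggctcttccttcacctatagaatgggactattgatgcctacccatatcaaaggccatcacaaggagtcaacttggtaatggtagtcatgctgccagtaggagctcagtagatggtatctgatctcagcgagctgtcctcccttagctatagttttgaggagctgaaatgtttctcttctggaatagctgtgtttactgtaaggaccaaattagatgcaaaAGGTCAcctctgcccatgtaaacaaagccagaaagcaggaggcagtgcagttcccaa
Rps6ka6: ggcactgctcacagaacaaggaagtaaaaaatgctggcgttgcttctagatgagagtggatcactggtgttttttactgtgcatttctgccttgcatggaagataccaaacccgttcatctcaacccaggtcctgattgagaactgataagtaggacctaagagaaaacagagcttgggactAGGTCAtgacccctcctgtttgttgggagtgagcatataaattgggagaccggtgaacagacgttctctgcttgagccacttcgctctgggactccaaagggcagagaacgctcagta
Ckmt1: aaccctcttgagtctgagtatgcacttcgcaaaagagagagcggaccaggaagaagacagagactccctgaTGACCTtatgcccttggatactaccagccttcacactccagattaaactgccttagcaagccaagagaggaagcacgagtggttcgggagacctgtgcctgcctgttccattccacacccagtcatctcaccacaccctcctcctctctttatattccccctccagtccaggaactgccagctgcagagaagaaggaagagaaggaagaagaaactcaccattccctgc
The capitals begin 38 bases before the start in Slc7a7, 7 in Mrvi1, 68 in Rps6ka6 and 179 in Ckmt1. A match is a description of letters, not of a bound site, and distal sites were not searched.

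Receptors and membrane signalling genes gave 12 members, with a median of -1.13. Rxfp1 encodes the receptor of relaxin, a hormone that acts on the atrium. It was 7.76, 7.80 and 7.60 in control atria, 5.30, 4.26 and 5.20 in mutants and 3.99, 3.83 and 3.92 in ventricles. The ventricle arrays lay in the lowest 25% of all probe sets, and the mutants, at -2.80 ± 0.23 (6.94-fold), lay between both control tissues. Tnfrsf19, a receptor of the tumour necrosis factor family, was even between arrays, at 9.52, 9.59 and 9.59 in control atria and 7.37, 7.42 and 7.48 in mutants (-2.14 ± 0.17), while its ventricle arrays (6.81, 7.48 and 6.65) overlapped with the mutants. Its other probe sets were dim and gave 0.02 and -0.63.

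Ntsr2, a neurotensin receptor, differed by -1.86 ± 0.18, the G protein subunit Gng13 by -1.39 ± 0.13, the adhesion protein Flrt1 by -1.21 ± 0.11 and the proteoglycan Sdc1 by -1.17 ± 0.11. Podoplanin, Pdpn, known from lymphatic endothelium and mesothelium, gave -1.10 ± 0.20 and the amyloid precursor-like Aplp1 -1.03 ± 0.11. Lrrn2 (-1.08), Lypd1 (-1.06), the ephrin receptor Epha4 (-0.77) and the scaffold Homer1 (-0.72) complete the group. Homer1 had 4 other probe sets bright enough to judge, all lower in the mutant, by -0.39 to -0.75.

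Among kinases and modulators of signalling, Rps6ka6 (RSK4), a kinase of the ribosomal S6 kinase family, stood out. It was 8.35, 8.29 and 8.32 in control atria, 5.56, 5.94 and 5.75 in mutants and 5.31, 5.29 and 5.17 in ventricles. The mutants lay near but above the ventricles, with a difference of -2.57 ± 0.09 (5.94-fold) and 83.9% of the chamber difference. Its relative Rps6ka5 (MSK1) differed by -0.95 ± 0.15. Shisa2, which holds back Wnt and FGF receptors, gave -1.88 ± 0.21 (2 of its ventricle arrays lay in the lowest 25% of probe sets), and Pde9a, a phosphodiesterase of cyclic GMP, -1.19 ± 0.09. Socs3 (-0.91), Rhobtb1 (-0.87) and Pkn3 (-0.77) were also members.

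Axin2, a Wnt target that feeds back on the pathway, was 8.23, 8.14 and 8.37 in control atria, 7.37, 7.31 and 7.15 in mutants and 7.07, 7.02 and 6.89 in ventricles. Each group stood apart from the others, with a mutant difference of -0.97 ± 0.09. With the mean of all its probe sets the mutant difference was -0.52. Of the other 35 measured genes of the fixed Wnt list, 9 passed as lower and 4 as higher in the mutant by limma (median 0.02). In the ventricle 12 of them were lower and 10 higher. Over all genes the shares were 9.79% and 7.76% in the mutant and 23.6% and 29.2% in the ventricle. Bambi, a decoy receptor that dampens BMP and TGF-beta signals, was 10.09, 10.09 and 9.95 in control atria, 9.29, 9.28 and 9.39 in mutants and 9.08, 9.11 and 8.92 in ventricles (-0.72 ± 0.07). Of the other 37 genes of the BMP and TGF-beta list 7 passed as lower and 4 as higher in the mutant (median -0.05). In the ventricle 26 were lower and 3 higher (median -0.77), beside 23.6% and 29.2% of all genes. Bmp5 (91.8%) was among the genes left out because the control atria varied.

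The nuclear factors among the members were Vdr, Cited4, Smarcd3, Wt1, Klf10 and Msc. Vdr, the vitamin D receptor and like COUP-TFII a nuclear receptor, was 8.48, 8.51 and 8.38 in control atria, 6.46, 6.31 and 6.37 in mutants and 5.39, 5.77 and 6.00 in ventricles. All groups were apart, and the difference was -2.08 ± 0.13 (4.22-fold), or -1.52 with its other probe set. Smarcd3 (BAF60c), a subunit of the SWI/SNF chromatin remodelling complex that works with cardiac transcription factors, was even within groups, at 11.51 ± 0.06, 10.39 ± 0.05 and 10.19 ± 0.06 (-1.12 ± 0.06, 85.2%). The co-activator Cited4 differed by -1.41 ± 0.13, or -0.70 with the mean of all its probe sets. The TGF-beta-induced repressor Klf10 differed by -0.83 ± 0.16 and the muscle repressor Msc by -0.74 ± 0.17. Wt1, a factor of mesothelium and epicardium, gave -0.99 ± 0.20. The fixed list of atrial and sinus venosus transcription factors holds none of these. Of its 23 genes 6 passed as lower and 3 as higher in the mutant, beside 9.79% and 7.76% of all genes.

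**Figure D3:**
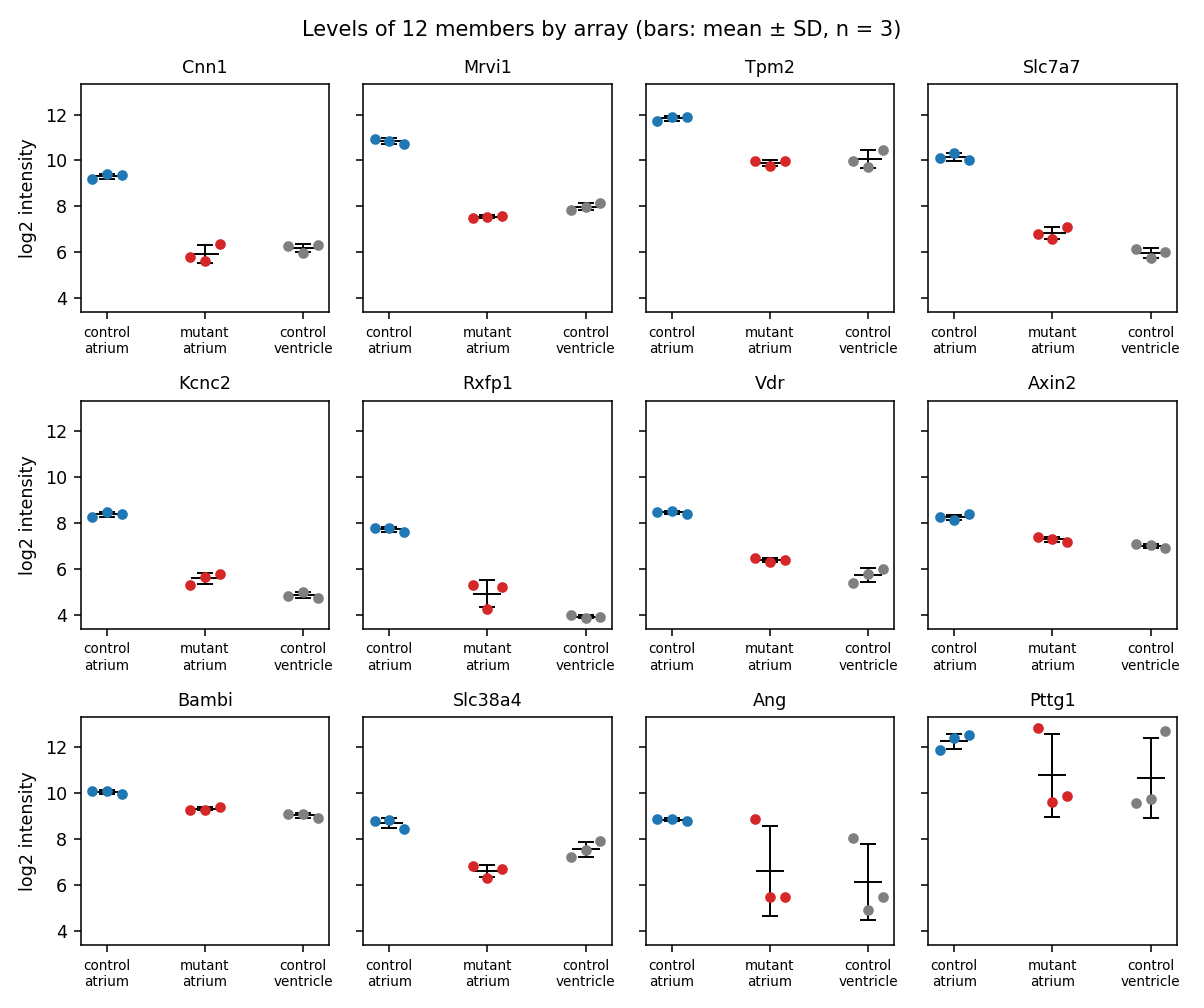
Log2 intensity (y axis) of 12 members on each array of the control right atrium, mutant right atrium and control ventricle groups, with points for arrays and bars for the mean ± SD (n = 3). Most members are tight within groups, such as Mrvi1 and Vdr, while Ang and Pttg1 each have 1 mutant and 1 ventricle array near the control atrium level, and Slc38a4 is lower in the mutants than in the ventricles.

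Enzyme genes included some of the brightest members. Nudt4, a hydrolase of inositol pyrophosphates, was 13.67, 13.86 and 13.62 in control atria, 12.26, 12.31 and 12.21 in mutants and 12.50, 12.52 and 12.46 in ventricles. It was below all ventricle arrays in every mutant array, with a difference of -1.46 ± 0.07 (119%), and its other probe set gave -1.94 and 129.9%. Ckmt1, the ubiquitous mitochondrial creatine kinase, differed by -1.92 ± 0.15 and the ceramide synthase Cers6 by -1.46 ± 0.15. Star, which carries cholesterol into mitochondria, differed by -1.76 ± 0.15, or -0.95 with the mean of all its probe sets. The chondroitin sulfotransferase Chst11 (-1.05), the mitochondrial folate enzyme Aldh1l2 (-0.96), Dhrs7 (-0.76), Osbpl6 (-0.73), Tmtc1 (-0.67) and Tmx4 (-0.65) follow. Chst11 and Aldh1l2 are near neighbours in the gene order, with 2 coding genes between them.

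Secreted and matrix proteins gave 10 members. Igfbpl1, related to the insulin-like growth factor binding proteins, differed by -1.74 ± 0.11 (107%), and Chrdl1, a BMP antagonist of the chordin family, by -1.49 ± 0.16. Adamts6 (-1.17), Ccn3 (-1.10), Adam19 (-1.02), Sbsn (-1.02), Prss12 (-0.98), Cklf (-0.79) and Tgfbi (-0.76) showed smaller differences. The tenth, Ang, is described with the uneven genes below.

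Vesicle traffic gave 5 members, led by Clba1 (-1.82 ± 0.18) and by Rab3b, a small GTPase of regulated secretion (-1.58 ± 0.40). Rab6b (-1.56 ± 0.26) and Doc2g (-1.34 ± 0.16), one of the brightest members at 12.14 ± 0.08 in control atria, belong here, as does Stx11 (-0.99). Rab3b was the only member on the fixed list of secretory granule genes. Of the other 26 genes of that list 4 passed as lower and 2 as higher in the mutant, beside 9.79% and 7.76% of all genes. In the ventricle 14 passed as lower and 6 as higher, beside 23.6% and 29.2% of all genes.

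Tight junction genes among the members were Cldn23 (-2.62 ± 0.15), Cldn15 (-1.21 ± 0.10) and the tricellular receptor Lsr (-1.003 ± 0.10). Cldn23 was 7.01, 6.81 and 7.33 in control atria, 4.22, 4.54 and 4.52 in mutants and 3.99, 4.33 and 4.13 in ventricles. Mutants and ventricles overlapped, and both lay in the lowest 25% of all probe sets on every array.

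Genes of RNA, ribosome and cell cycle functions gave 7 members. Pum3, a nucleolar protein of the pumilio family, was bright and even, at 12.25, 12.27 and 12.21 in control atria, 10.21, 10.13 and 10.48 in mutants and 10.12, 10.17 and 10.17 in ventricles. The mutants overlapped with the ventricles (-1.97 ± 0.09, 94.2%), and its other probe sets gave -1.81 and -0.81. Also in this group were the RNA-processing Rbm19 (-1.24), the securin Pttg1 and the poly(A) polymerase Tent5c (-1.86, or -1.18 with the mean of all its probe sets). The condensin subunit Ncapd3 (-0.94), the helicase Zranb3 (-0.95) and Carhsp1 (-0.85) complete it.

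The remaining 20 members have no role in these groups. The largest were Trim34a (-2.46 ± 0.40), the transcript 4930512H18Rik (-2.28 ± 0.14, with all 3 ventricle arrays and 1 mutant array in the lowest 25% of probe sets), and Cpne5, a calcium-dependent membrane-binding protein (-2.09 ± 0.17). Trim34a and Trim30d (-1.60 ± 0.37) belong to a family of near-identical genes that a probe set may not separate, and the other probe set of Trim34a, which is dim, gave 0.78. The others, from -1.55 to -0.64, were Dubr, Fam110c, 2610035D17Rik, Rsl1, Itm2a, Anxa8, AI661453, Ypel2, Nfxl1, Fam107b, Gm10336, Mturn, Pdzrn3, Ifitm10, Zfp994 and Gm30873.

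Where the mutant stood relative to the ventricle varied among the members. The mutant mean was more than 1 log2 unit above the ventricle mean for 5 members (Cybrd1, Fxyd3, Rab3b, Tppp3 and Rxfp1). In 48 of 107 the mutant arrays lay above all ventricle arrays, in 56 they overlapped, and in 3 (Mrvi1, Slc38a4 and Nudt4) they lay below all of them. Over all genes 20.5% lay above and 26.8% below without overlap. The rule used both the mutant and the ventricle difference from the control atria, so these counts only describe the members. The mutant mean was below the ventricle mean, which is more than 100% of the chamber difference, for 13 members. Trim34a had the highest percentage, 188%, but its ventricle arrays were split, at 7.55, 7.39 and 5.72, and the mutants (5.95, 5.55 and 5.70) overlapped with the lowest of them.

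Replicates of the mutant differed in how far the members were lowered. The median percentage of the chamber difference was 69.7% in mutant replicate 1, 85.3% in replicate 2 and 76.4% in replicate 3. Replicate 2 was the lowest of the mutants for 70 members, replicate 3 for 17 and replicate 1 for 20. The mean over all members was 9.05, 9.06 and 9.02 in control atria, 7.80, 7.51 and 7.68 in mutants and 7.34, 7.32 and 7.34 in ventricles. The median SD over members was 0.13 in control atria, 0.19 in mutants and 0.18 in ventricles, beside 0.08 in mutants over all genes. The rule limited the spread of the members in the control atria alone.

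A mutant SD over 0.5 was found for 10 members, Fxyd3, Rxfp1, Ang, Rab3b, Dubr, Pttg1, Rsl1, Slc35a5, Aldh1l2 and Gm30873. Ang, which encodes angiogenin, was 8.87, 8.89 and 8.78 in control atria, 8.89, 5.48 and 5.48 in mutants and 8.03, 4.93 and 5.50 in ventricles. Pttg1 was 11.90, 12.40 and 12.52, then 12.86, 9.61 and 9.86, then 9.57, 9.73 and 12.70. Both genes were either high or low on an array, and mutant replicate 1 was at the control level for both. Without that replicate the difference was -3.37 for Ang (with it, -2.23 ± 0.97) and -2.54 for Pttg1 (with it, -1.50 ± 0.96), and without mutant replicate 2 it was -0.91 for Pttg1.

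Rab3b (7.81, 6.16 and 6.05 in the mutants) and Dubr (8.55, 7.04 and 6.75) were also highest in mutant replicate 1, which had the high Xist of the mutants. In the ventricles, all with high Xist, Rab3b was 5.59, 5.53 and 5.78 and Dubr 6.62, 6.52 and 8.03. The part of sex in these genes was not tested. Without mutant replicate 2 the difference of Rsl1 was -0.68 in place of -1.13 and that of Aldh1l2 -0.61 in place of -0.96. Without mutant replicate 1 that of Gm30873 was -0.31 in place of -0.64. Leaving out each of the 9 arrays in turn, 63 of the 107 genes met the rule every time.

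Other probe sets of the same genes give a second reading on the same arrays. Of the members 66 had 113 other probe sets, of which 96 were lower in the mutant mean and 75 lower without overlap. Among the 50 with a control atrium mean of at least 7, 49 were lower, 45 without overlap, and 30 met the limits on both differences by themselves. The exception was 1 probe set of Mtss1. Over all genes, with 1 probe set each, 18.9% were lower without overlap. The genes were chosen on these same arrays, so the counts only describe the members. Used probe sets with an _x_at suffix, which can cross-hybridise, were those of Ccn3, Rsl1, Sbsn and Socs3.

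The means of the mesothelial, hepatocyte, endothelial and sinus node marker lists were lower on every mutant array than on every control atrium array. Other lists, such as that of macrophages, were not. The members were lower by the rule that chose them. Cldn15 and Wt1 are on the mesothelial list. Of its other 15 measured genes 13 passed as lower in the mutant and none as higher by limma, beside 9.79% and 7.76% of all genes. In the ventricle all 15 were lower, beside 23.6% of all genes. The mean over all 17 was 9.42 to 9.68 in control atria, 8.34 to 8.55 in mutants and 6.98 to 7.25 in ventricles, and no marker lay in the lowest 25% of all probe sets on every array. Of the 15 genes, 2 had 60% or more of the chamber difference (Krt8 and Krt18), and several, these included, could not be members by the start of their symbols. The part of mesothelium in the members' values was not tested.

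Hepatocyte markers had a median of 102% of the chamber difference, with 17 of 18 lower in the mutant. The members' median difference was -1.18, -1.22 and -1.16 against control atrium replicates 1, 2 and 3, which the limit on the control atria keeps close. The part of liver tissue in the members' values was not tested. Endothelial and endocardial markers were 10.35 to 10.40, 10.09 to 10.25 and 9.14 to 9.26 in the same order of groups, with 4 of 16 lower in the mutant. Macrophage markers were 9.07 to 9.12, 9.29 to 9.95 and 8.43 to 8.96, with 6 of 13 higher. Sinus node markers averaged 8.42 to 8.49, 8.05 to 8.14 and 6.96 to 7.10, and of the 10 besides the member Cpne5, 4 passed as lower and 1 as higher. The counts of these lists stand beside 9.79% lower and 7.76% higher in the mutant over all genes.

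**Figure D4:**
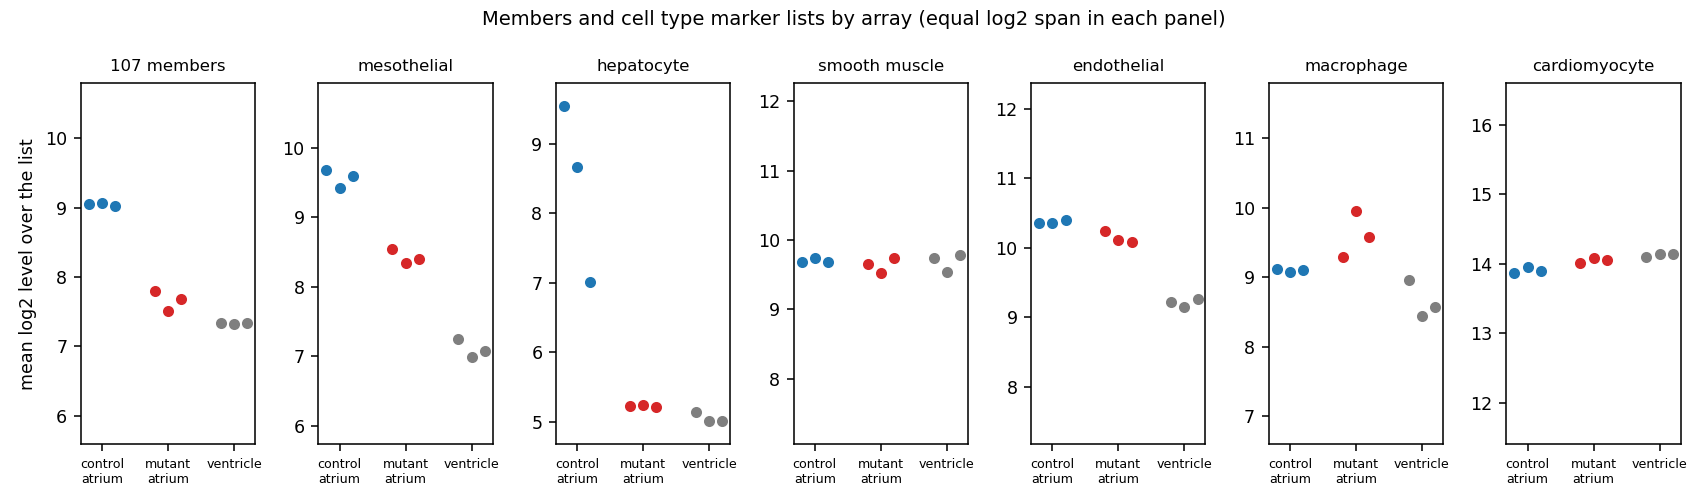
Mean log2 level over the 107 members and over 6 cell type marker lists (y axis) on each array of the 3 groups, with each panel spanning the same number of log2 units. The members and the mesothelial and endothelial lists are highest in control atria, and smooth muscle and cardiomyocyte lists are nearly level. Hepatocyte markers vary between the control atria, while the rule kept the members close there.

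The remaining fixed lists held no member, except skeletal muscle (Actn3) and lymphatic (Pdpn), whose counts are given without it. The member Kcnc2 is not on the potassium channel list. In the mutant, limma passed 4 of 30 potassium channel genes as lower and 6 as higher, 6 of 29 calcium handling genes as lower and 6 as higher, and 7 of 33 growth factor genes as lower and 7 as higher. For retinoic acid genes the counts were 3 and 1 of 19, for lipid and steroid enzymes 12 and 4 of 31, and for glutathione and antioxidant genes 4 and 7 of 31. Fibroblast markers passed as lower in 1 and higher in 2 of 15 cases, adipocyte markers in 2 and 4 of 10, skeletal muscle markers in 1 and 1 of 14, and lymphatic markers in 1 and 1 of 5. Neuron markers gave 1 and 3 of 19, Schwann cell markers 1 and 0 of 14, lymphocyte markers 0 and 2 of 9, lung epithelium markers 0 and 1 of 11, thymus and thyroid markers 1 and 0 of 9, and cardiomyocyte markers 0 and 3 of 12. All these counts stand beside 9.79% lower and 7.76% higher over all genes.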

How the data were processed

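The 9 arrays hold intensity per probe set, made by the authors with RMA, per the submitters' processing notes. RMA corrects background and normalises arrays by quantiles. Its version is not given in the sources used here. The deposited intensity values are on a linear scale, and their log2 was taken. Of 45101 probe sets, 34945 named exactly 1 gene (64 were controls, 932 named several genes, 9160 named none), and the one with the highest mean over 9 arrays stands for each gene. Limma 3.58.1 in R 4.3.3 (lmFit and eBayes, a mean per group, no covariates) was fitted to all 9 arrays, with Benjamini-Hochberg adjustment over 18193 genes and a threshold of 0.05. Adjusted p-values and counts in gene lists are given only for genes that are not members. The fit was tested on simulated data. The number of arrays limits the precision.

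The members and the gene lists (13 of functions, 16 of cell types) were chosen with earlier results of these data known. Genes to be named were the 20 largest differences, the 5 brightest, the 5 highest percentages, the genes at the limit, members on a function list and up to 2 per other role. The other members are given so that they are accounted for, and 1 member, which the rule for names covers, is not reported here. Roles were assigned from textbook knowledge after the values were seen. Figures and tables used Python 3.11.15, pandas 2.3.3 and matplotlib 3.10.9. Alternatives were a replicate block, an intensity trend with robust variance, median centring, quantile normalisation, averaging a gene's probe sets, group medians, other limits, leaving out the dimmest 40% of genes, and leaving out each array.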

Additional observations from a re-analysis of the deposited data

How the results depend on the processing

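The number of members was 107 and changed with the limits: 164 at 0.5 of the chamber difference, 73 at 0.7, 146 without the limit on the control atria and 74 with a control atrium mean of at least 8. It was 95 with quantile normalisation (87 shared with the members), 89 with median centring (81 shared), 73 with the mean of all probe sets (65 shared), 114 with group medians (92 shared), and 99 to 138 with an array left out. The median percentage of the chamber difference over the members stayed between 70.6% and 80.5% over these settings of scaling, probe sets, centre and left-out arrays. Median centring shifted the ventricle minus control atrium difference of all genes by 0.14 (median). Of 38 named members under 13 alternatives each, 474 of 494 values moved by less than 1 SD between replicates, 20 moved by more and 0 changed sign. Leaving out 1 array cannot move a value by 1 SD in groups of this size. A ventricle array does not enter the mutant minus control atrium difference at all. Only the scaling, probe set and group median settings could therefore show such a move. With the mean of all probe sets, Trim34a gave -0.84, Tnfrsf19 -0.92, Cited4 -0.70, Axin2 -0.52, Star -0.95, Cybrd1 -1.45 and Tent5c -1.18.

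The genes called by limma in mutant against control atria numbered 3192, and 1832 to 3074 with an array left out: 1832 without mutant replicate 2, 1990 without mutant replicate 3, 1972 without control atrium replicate 1 and 2013 without control atrium replicate 2. The cause was not tested. With median centring 54.7% of these calls were higher, against 44.2%. For the ventricle against control atria it was 74.1% against 55.3%, and for mutant atria against ventricles 27.6% against 48.9%. With an array left out, the calls numbered 7742 to 9459 for ventricle against control atria (9615 with all) and 4657 to 5961 for mutant atria against ventricles (5956 with all). The replicate block gave 2704, 9199 and 5573 calls in the same order of comparisons. Same-numbered arrays had correlated deviations between -0.10 and 0.12, so the numbers were not taken to pair the samples, and the members are chosen without a model.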
